A study of Mus musculus with 13 samples.

Results

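The genes described here are 9 genes of iron and heme handling: the heme-degrading enzymes Hmox1, Blvra and Blvrb, the ferritin chains Ftl1 and Fth1, the iron exporter Slc40a1, and the iron uptake genes Tfrc, Slc11a2 and Steap3. They were chosen by symbol, with earlier results of these data known, from the 55416 genes of a mouse brain RNA sequencing table. All 9 were found there, and all 9 passed the filter on low counts. Shares of all genes set beside the 9 are therefore a description and no test of the set. Heme released from dying red cells is opened by heme oxygenase into biliverdin, carbon monoxide and iron; biliverdin reductases turn the biliverdin into bilirubin, and the freed iron is stored in ferritin or leaves the cell through ferroportin, the product of Slc40a1. Cells of the brain take iron up mainly bound to transferrin, through the transferrin receptor, and iron regulatory proteins adjust ferritin and receptor synthesis by binding hairpins in their messenger RNAs. Cerebral cavernous malformations, the disease modelled in these mice, are leaky clusters of enlarged brain capillaries that bleed, and iron deposits around the lesions are a known feature.

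Brain tissue came from mice that all carry a loxP-flanked Pdcd10 gene, also named Ccm3, on both chromosomes (Pdcd10 fl/fl), in 13 libraries of 4 groups. Knockout (KO) mice also carry Slco1c1-iCreERT2, a tamoxifen-regulated Cre recombinase under a promoter active mainly in brain endothelium and choroid plexus, and received 50 µg of 4-hydroxytamoxifen on postnatal day 1. Mice labelled Pdcd10 fl/fl without the Cre (flox) were the littermate controls; the design text does not say whether they were injected, and names Cre animals without injection as further controls. Hypoxia was 12% oxygen for 7 days and normoxia was 21% oxygen. There were 4 KO and 3 flox libraries in hypoxia, and 3 KO and 3 flox libraries in normoxia; the age at collection is not given in the sources used here. Loss of Pdcd10, the Cre transgene and the injection cannot be told apart in any comparison of KO with flox.

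Libraries held between 42090437 and 71216636 counts. Pdcd10 itself lay between 14.7 and 18.1 CPM (counts scaled to a common library total) in every library and did not pass the test between genotypes (log2 fold change -0.09 in hypoxia and -0.02 in normoxia); the Cre acts in a small share of brain cells, so these values are no check of the genotype labels. Summed markers of neurons, astrocytes and oligodendrocytes were each at 4028 CPM or more in every library. KO normoxia replicate 2 had choroid plexus markers at 11.5 CPM in sum, against 313.9 CPM or more in each other library. Of the 13 libraries, all labelled male, 4 carried Xist without Y-linked transcripts: KO hypoxia replicates 3 and 4, KO normoxia replicate 3 and flox normoxia replicate 3. All flox hypoxia libraries carried Y-linked transcripts, so this trait was not balanced between KO and flox in hypoxia. With the 9 other libraries alone, the counts of the 9 genes called between KO and flox were the same, 5 in hypoxia and 1 in normoxia. Over all 22657 genes tested in that fit, 1401 and 311 were called. It kept only replicates 1 and 2 of KO hypoxia, KO normoxia and flox normoxia. KO hypoxia replicate 1 stood apart in its blood transcripts. Its hemoglobin genes were at 1.72% of counts, against 0.346% to 0.419% in the other 3 KO hypoxia libraries. Values without that library stand beside many results of the 9 genes, but not beside all.

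A motif of the iron-responsive element, the hairpin that iron regulatory proteins bind, was found in reference transcripts of 4 of the 9 genes: Fth1, Ftl1, Tfrc and Slc40a1. Slc11a2 is also known to carry an element, in the 3′ UTR of some isoforms, and had no match to this motif. The elements of the ferritin chains and of Tfrc are shown because they mark the known difference between the storage genes, which carry it in the 5′ UTR, and the receptor, which carries several in the 3′ UTR. The search asked, on the transcript strand, for a C, any 5 bases, CAGTG with any sixth base, and 5 more bases that form Watson-Crick pairs with the 5 before the loop. Capitals mark the 6-base apical loop, and coordinates are from GENCODE M21 on GRCm38, another build than the GRCm39 named in the submitters' processing notes.
Ftl1, 5′ UTR, exon 1, chr7:45459779-45459807, minus strand: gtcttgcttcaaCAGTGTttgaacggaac
Fth1, 5′ UTR, exon 1, chr19:9982732-9982760, plus strand: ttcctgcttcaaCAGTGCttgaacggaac
Tfrc element 1, 3′ UTR, exon 19, chr16:32631219-32631247, plus strand: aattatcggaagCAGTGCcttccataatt
Tfrc element 2, 3′ UTR, exon 19, chr16:32631663-32631691, plus strand: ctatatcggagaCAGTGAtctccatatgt
Tfrc element 3, 3′ UTR, exon 19, chr16:32631710-32631738, plus strand: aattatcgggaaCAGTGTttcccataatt
The motif occurred in the 5′ UTR of 12 of 22527 coding genes (0.0533%) and in the 3′ UTR of 19 (0.0843%). These matches describe the letters of the reference, and RNA levels do not measure binding to them.

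Compared per length, the levels of the 9 genes spanned the range between the abundant ferritin heavy chain and the scarce endosomal reductase. Mean deposited RPKM (reads per kilobase of gene, scaled by the library total) over the 13 libraries was 367 for Fth1, 27.0 for Ftl1, 20.2 for Tfrc and 8.35 for Slc11a2. It was 4.47 for Hmox1, 3.92 for Blvra, 1.77 for Blvrb, 1.71 for Slc40a1 and 1.20 for Steap3. Fth1 lay above every other gene in every library, with no overlap of its range of 335 to 422 RPKM. Hmox1, at 1.87 to 18.8 RPKM, spanned the levels of Blvra and Slc11a2, and Blvrb (1.43 to 2.27 RPKM), Slc40a1 (0.896 to 2.87 RPKM) and Steap3 (0.748 to 1.64 RPKM) overlapped one another, so those neighbours cannot be put in order. All CPM values that follow are scaled by the trimmed mean of M-values (TMM) and compare 1 gene between libraries.

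**Figure D1:**
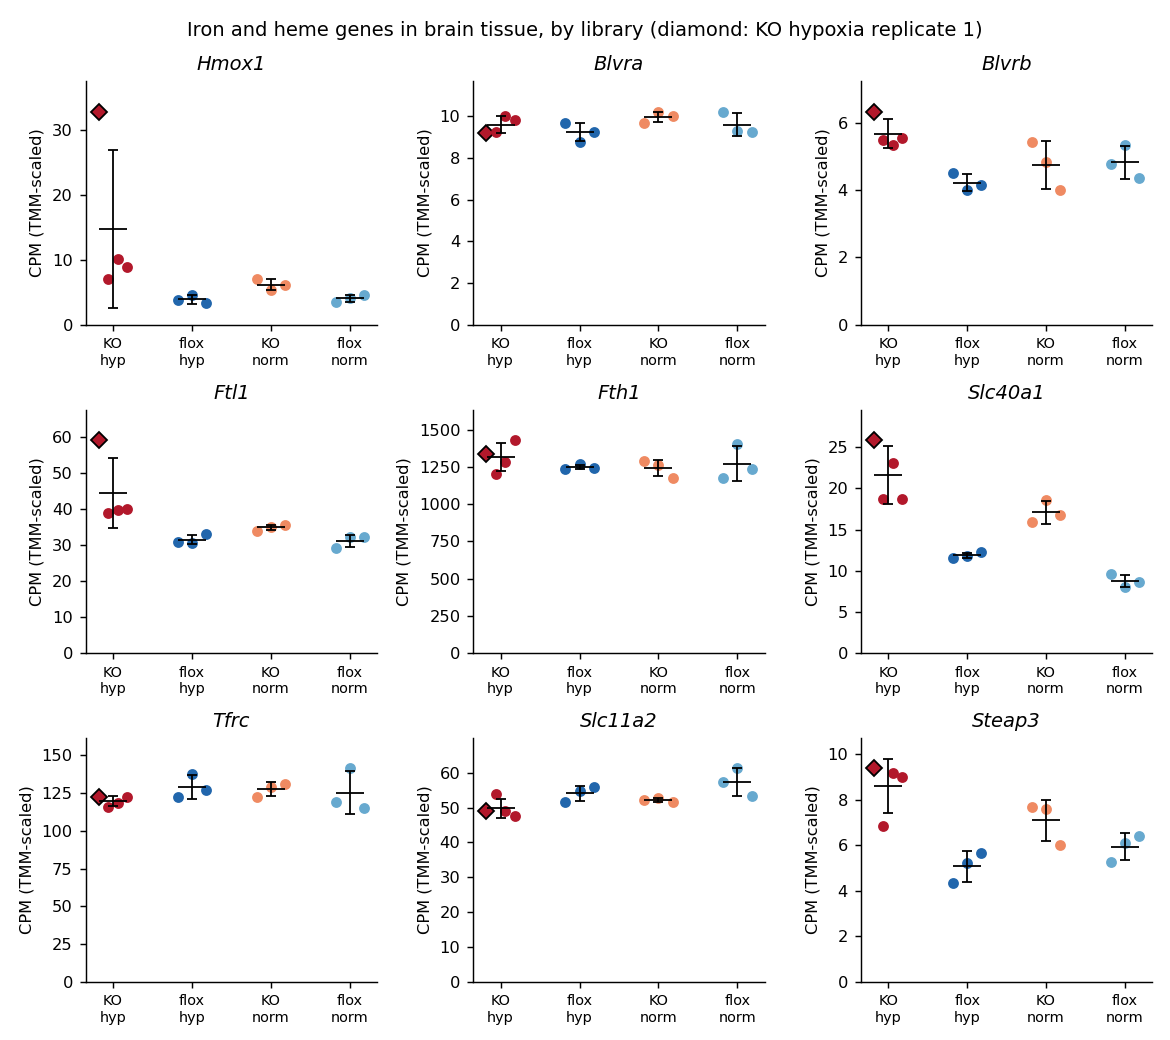
Level of each of the 9 genes in every library, in TMM-scaled CPM from 0, for KO hypoxia, flox hypoxia, KO normoxia and flox normoxia; points are libraries, bars are the mean and SD, and the diamond is KO hypoxia replicate 1. Hmox1 and Ftl1 show the diamond far above the other 3 KO hypoxia libraries, Slc40a1 is higher in KO than in flox in both oxygen conditions, and Blvra, Fth1 and Tfrc lie at similar levels in each group.

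The first question was how the genes differed between KO and flox under hypoxia. In KO brains 5 of the 9 genes were higher and none was lower: Hmox1, Blvrb, Ftl1, Slc40a1 and Steap3. Over all 22507 genes tested, 9.06% passed the threshold of 0.05 on the adjusted p, 6.78% higher and 2.28% lower. In these 5 each KO library lay above each flox library, as in 11.5% of all genes, and in none did each lie below, beside 9.37%. The 9 genes had a median log2 fold change of 0.43, beside -0.01 for all genes. Blvra, Fth1, Tfrc and Slc11a2 were not called. The count was 4 without KO hypoxia replicate 1, beside 1454 of 22278 genes called in all. Leaving out a flox hypoxia library gave 3 (replicate 1 or 2) or 4 (replicate 3). Without flox hypoxia replicates 1, 2 and 3 in turn, 1254, 1151 and 1386 genes were called in all. With all libraries 2039 were called, so calls fell over all genes too.

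Hmox1 encodes heme oxygenase 1, the inducible enzyme that opens the heme ring. It reached 32.9, 7.05, 10.15 and 8.94 CPM in KO hypoxia replicates 1 to 4, against 3.90, 4.59 and 3.30 CPM in the flox hypoxia libraries. Every KO library lay above every flox library, and replicate 1 lay more than 3 times above the next. The log2 fold change was 1.91 ± 0.42 (SE, edgeR adjusted p = 0.00857), a 3.76-fold difference. Without replicate 1 the KO mean was 8.71 ± 1.56 CPM (SD, n = 3) against 3.93 ± 0.645 CPM in flox (SD, n = 3), and the log2 fold change was 1.15 ± 0.16 (adjusted p = 0.000282).

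The biliverdin reductases act after heme oxygenase, and the difference between their fold changes was not tested. Blvrb, the reductase of the beta isomer that also reduces flavins, was at 6.33, 5.50, 5.34 and 5.53 CPM in KO hypoxia, against 4.50, 4.01 and 4.16 CPM in flox hypoxia. The groups did not overlap, the log2 fold change was 0.43 ± 0.12 and edgeR's adjusted p was 0.0329. That call was lost when KO hypoxia replicate 1 was left out (0.37 ± 0.12, adjusted p = 0.0895) and when any 1 of the 3 flox hypoxia libraries was (adjusted p = 0.0619, 0.135 and 0.101 without replicates 1, 2 and 3). Blvra, the main reductase of the adult pathway, lay between 9.22 and 10.03 CPM in KO and between 8.79 and 9.67 CPM in flox, with a log2 fold change of 0.05 ± 0.07 that did not pass the test (adjusted p = 0.729).

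Of the ferritin chains 1 was called, Ftl1, and the difference between the chains was not tested. Ftl1, the light chain that helps mineralise iron inside the ferritin shell, was at 59.1, 38.9, 39.7 and 40.0 CPM in KO hypoxia, against 30.9, 30.5 and 33.0 CPM in flox hypoxia. All KO libraries lay above all flox libraries, and replicate 1 again stood far above the other 3. The log2 fold change was 0.50 ± 0.11 (edgeR adjusted p = 0.0116), and 0.33 ± 0.06 without replicate 1 (adjusted p = 0.00133). It lost the call without flox hypoxia replicate 1 (0.48 ± 0.14, adjusted p = 0.054) or 2 (0.47 ± 0.14, adjusted p = 0.0607).

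Ftl1 shares sequence with processed copies, and the pseudogenes Ftl1-ps1 (703 to 1927 counts) and Ftl2-ps (803 to 2276 counts) held reads of the same order as Ftl1 itself (1382 to 3472 counts). They differed between KO and flox in hypoxia by 0.57 ± 0.14 and 0.59 ± 0.13 on the log2 scale (edgeR adjusted p = 0.015 and 0.00938). How the counting divided shared reads among these loci is not given in the sources used here, so the level of Ftl1 is uncertain. Fth1, the heavy chain that oxidises ferrous iron, had hardly any such copies in the table (at most 18 counts in Fth-ps2). It was at 1338, 1205, 1286 and 1431 CPM in KO hypoxia, against 1239, 1268 and 1243 CPM in flox hypoxia, with overlapping groups and a log2 fold change of 0.07 ± 0.06 (adjusted p = 0.524).

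Slc40a1 encodes ferroportin, the iron exporter of vertebrate cells. It was at 25.9, 18.7, 23.03 and 18.8 CPM in KO hypoxia, against 11.6, 11.8 and 12.2 CPM in flox hypoxia. The lowest KO library stood well above the highest flox library. The log2 fold change was 0.87 ± 0.11 (edgeR adjusted p = 0.000115), a 1.82-fold difference, and 0.77 ± 0.09 without KO hypoxia replicate 1 (adjusted p = 8.92e-05).

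Of the uptake genes, only Steap3, the reductase that turns ferric into ferrous iron in endosomes, was called in hypoxia. It was at 9.37, 6.83, 9.19 and 9.01 CPM in KO hypoxia, against 4.32, 5.23 and 5.66 CPM in flox hypoxia. The groups did not overlap, although KO replicate 2 lay apart from the other 3 KO libraries on the low side. The log2 fold change was 0.77 ± 0.13 (edgeR adjusted p = 0.00166), and 0.72 ± 0.14 without KO replicate 1 (adjusted p = 0.00429). Tfrc, the transferrin receptor, lay between 115.6 and 122.6 CPM in KO and between 122.2 and 137.8 CPM in flox (-0.11 ± 0.06, adjusted p = 0.325). Slc11a2, which carries ferrous iron out of the endosome, lay between 47.7 and 53.8 CPM in KO and between 51.7 and 55.8 CPM in flox (-0.12 ± 0.05, adjusted p = 0.2). Both groups overlapped for each of these genes.

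**Figure D2:**
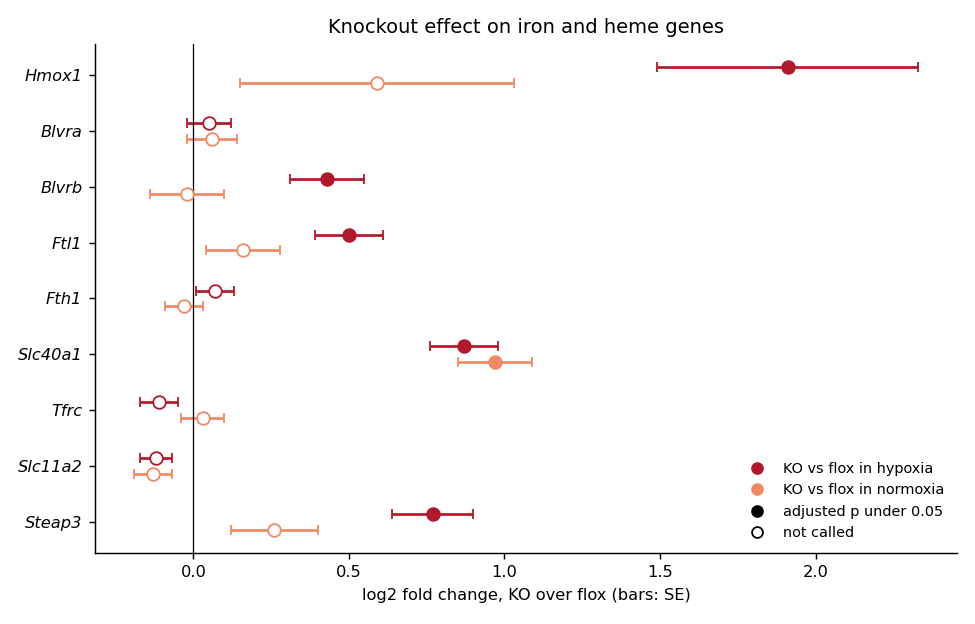
Log2 fold change of KO over flox for the 9 genes, in hypoxia (red, upper of each pair) and in normoxia (orange, lower), with bars for the SE; filled points have an edgeR adjusted p under 0.05. In hypoxia 5 points are filled, led by Hmox1 at 1.91, and in normoxia 1 is filled, Slc40a1 at 0.97.

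In normoxia 1 of the 9 genes differed between KO and flox, Slc40a1, beside 2.33% of all genes tested (1.96% higher, 0.369% lower). Slc40a1 was at 15.9, 18.6 and 16.8 CPM in KO normoxia, against 9.57, 8.06 and 8.68 CPM in flox normoxia. The groups lay far apart, with a log2 fold change of 0.97 ± 0.12 (edgeR adjusted p = 0.000277), a 1.95-fold difference. That call held in each of the 23 alternatives fitted, including each fit without 1 library (0.90 ± 0.13, edgeR adjusted p = 0.00228, without KO normoxia replicate 2). At an unadjusted p under 0.05, Slc40a1 and Slc11a2 passed, 2 of the 9 beside 13.6% of all genes. Without KO hypoxia replicate 1, 4 of the 9 passed at that unadjusted threshold, and still only Slc40a1 after adjustment. That fit called 727 of 22278 genes in all after adjustment, beside 524 of 22507 with all libraries.

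The other genes did not pass in normoxia, although some groups did not overlap. Hmox1 was at 7.03, 5.32 and 6.16 CPM in KO normoxia, against 3.47, 4.11 and 4.61 CPM in flox normoxia; each KO library was above each flox library, and the log2 fold change of 0.59 ± 0.44 had an edgeR adjusted p of 0.618. All libraries share 1 estimate of spread, and without KO hypoxia replicate 1 the Hmox1 value was 0.59 ± 0.16 (adjusted p = 0.0564). Ftl1 lay between 33.9 and 35.5 CPM in KO and between 29.1 and 32.1 CPM in flox (0.16 ± 0.12, adjusted p = 0.621). In all, 3 of the 9 genes had each KO library above each flox library and 1, Slc11a2, had each below, beside 10.5% of all genes for the first and 8.7% for the second. The remaining values were 0.26 ± 0.14 for Steap3, 0.06 ± 0.08 for Blvra, 0.03 ± 0.07 for Tfrc, -0.02 ± 0.12 for Blvrb, -0.03 ± 0.06 for Fth1 and -0.13 ± 0.06 for Slc11a2, with adjusted p between 0.299 and 0.974.

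Hypoxia against normoxia was compared within each genotype, using the same libraries as the comparisons above, so the 4 comparisons are not independent. In KO none of the 9 genes passed, beside 0.897% of all genes tested. Without adjustment 5 of the 9 had a p under 0.05, as had 14.3% of all genes. Hmox1 had the largest value, 1.27 ± 0.40 (edgeR adjusted p = 0.143), and each KO hypoxia library lay above each KO normoxia library, the closest pair being 7.05 and 7.03 CPM. Without KO hypoxia replicate 1 it was 0.51 ± 0.15 (adjusted p = 0.193). Ftl1 (0.35 ± 0.11, adjusted p = 0.154) and Slc40a1 (0.34 ± 0.10, adjusted p = 0.14) also had each KO hypoxia library above each KO normoxia library; without KO hypoxia replicate 1 they were at 0.18 ± 0.05 and 0.24 ± 0.09 (adjusted p = 0.184 and 0.317). With Hmox1, 3 of the 9 genes did so, beside 6.59% of all genes, and none had each library below, beside 6.04%. Steap3 was at 0.28 ± 0.13, Blvrb at 0.26 ± 0.12, Fth1 at 0.08 ± 0.06, Blvra at -0.06 ± 0.07, Slc11a2 at -0.07 ± 0.05 and Tfrc at -0.09 ± 0.06.

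These KO calls depended on the test. DESeq2 called Ftl1 (0.35 ± 0.11, adjusted p = 0.0494), and edgeR without a filter on low counts called Hmox1, Ftl1 and Slc40a1 (adjusted p = 5.96e-05, 0.00366 and 0.0266). Without KO hypoxia replicate 2, edgeR called Hmox1 (1.51 ± 0.36, adjusted p = 0.0478). In that order, these fits called 751 of 18224, 833 of 38833 and 463 of 22328 genes in all. The main fit called 202 of 22507.

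In flox none of the 9 genes passed, beside 0.0222% of all genes tested; 1 of the 9 and 6.65% of all genes had an unadjusted p under 0.05. Slc40a1 was the 1, at 11.6, 11.8 and 12.2 CPM in flox hypoxia against 9.57, 8.06 and 8.68 CPM in flox normoxia, without overlap (0.44 ± 0.12, edgeR adjusted p = 0.393). It was the 1 gene of the 9 with each hypoxia library above each normoxia library, beside 6.56% of all genes, and none had each below, beside 5.98%. It was called without a filter on low counts (0.43 ± 0.10, adjusted p = 0.0231) and in no other alternative. That fit called 158 of 38833 genes in all. Hmox1 was at 3.90, 4.59 and 3.30 CPM in flox hypoxia and 3.47, 4.11 and 4.61 CPM in flox normoxia, with a difference of -0.05 ± 0.45. The 7 other values lay between -0.23 (Steap3) and 0.04 (Tfrc), each with adjusted p of at least 0.866.

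The interaction asked whether the KO effect differed between hypoxia and normoxia. No gene passed in edgeR (0% of 22507), while 3 of the 9 and 7.26% of all genes had an unadjusted p under 0.05; Other fits called genes, none of them among the 9: 55 in edgeR without a filter on low counts, 10 with the 9 libraries with Y-linked transcripts, 1 with the replicate block, 1 without KO normoxia replicate 3, 3 in DESeq2 and 2 in each limma fit. The differences were 1.32 ± 0.60 for Hmox1 (edgeR adjusted p = 0.683), 0.51 ± 0.19 for Steap3 and 0.45 ± 0.17 for Blvrb (adjusted p = 0.625 each). For Ftl1 it was 0.33 ± 0.17 (adjusted p = 0.688), and for Slc40a1 -0.10 ± 0.16 (adjusted p = 0.918). Without KO hypoxia replicate 1 they were 0.55 ± 0.23 for Hmox1, 0.17 ± 0.08 for Ftl1 and -0.20 ± 0.13 for Slc40a1 (adjusted p = 0.7, 0.751 and 0.823). Genes called in hypoxia and not in normoxia, such as Steap3, are therefore not shown to respond differently in the 2 oxygen conditions. The values of Blvra, Fth1, Tfrc and Slc11a2 lay between -0.14 and 0.10.

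The genes were next set beside the hemoglobin share of each library, the percent of counts from hemoglobin genes. This share was taken as a mark of red cell RNA in the tissue, but its origin was not tested. It is no measure of blood volume. It was 1.72%, 0.348%, 0.419% and 0.346% in KO hypoxia and 0.0440%, 0.0471% and 0.0661% in flox hypoxia, then 0.168%, 0.0950% and 0.136% in KO normoxia and 0.0138%, 0.0198% and 0.0256% in flox normoxia. The 4 groups did not overlap. The exact two-sided permutation p, taken as double the one-sided value, was 0.0571 for KO against flox in hypoxia and for hypoxia against normoxia in KO, and 0.1 for the other 2 pairs, the smallest that groups of these sizes allow, with an adjusted p of 0.1 for each of the 4. Taken on the absolute difference, the first 2 were 0.114. Summed erythroid markers moved with it, at 34.2 to 200.9 CPM in KO hypoxia, 6.70 to 8.79 CPM in flox hypoxia, 11.4 to 19.9 CPM in KO normoxia and 3.05 to 4.31 CPM in flox normoxia. The part of blood RNA in the differences of the 9 genes was not tested.

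Because the groups form separate clusters of hemoglobin share, the relation was fitted within groups, as the change in log2 expression per doubling of the share after allowing each group its own mean. Of the 9 genes 2 passed, Hmox1 at 0.78 ± 0.08 (SE, edgeR adjusted p = 0.000271) and Ftl1 at 0.23 ± 0.03 (adjusted p = 0.00405), beside 0.764% of all genes (0.755% higher, 0.00889% lower). The same 2 had an unadjusted p under 0.05, beside 8.09% of all genes. Both calls rested on KO hypoxia replicate 1. Without it neither gene passed, and the slopes were 0.34 ± 0.18 and 0.09 ± 0.07 (adjusted p = 0.999 each). Among the other 12 libraries a relation within groups was therefore not detectable. For Slc40a1 the slope was 0.11 ± 0.06 (adjusted p = 0.661), and -0.09 ± 0.12 without that library.

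**Figure D3:**
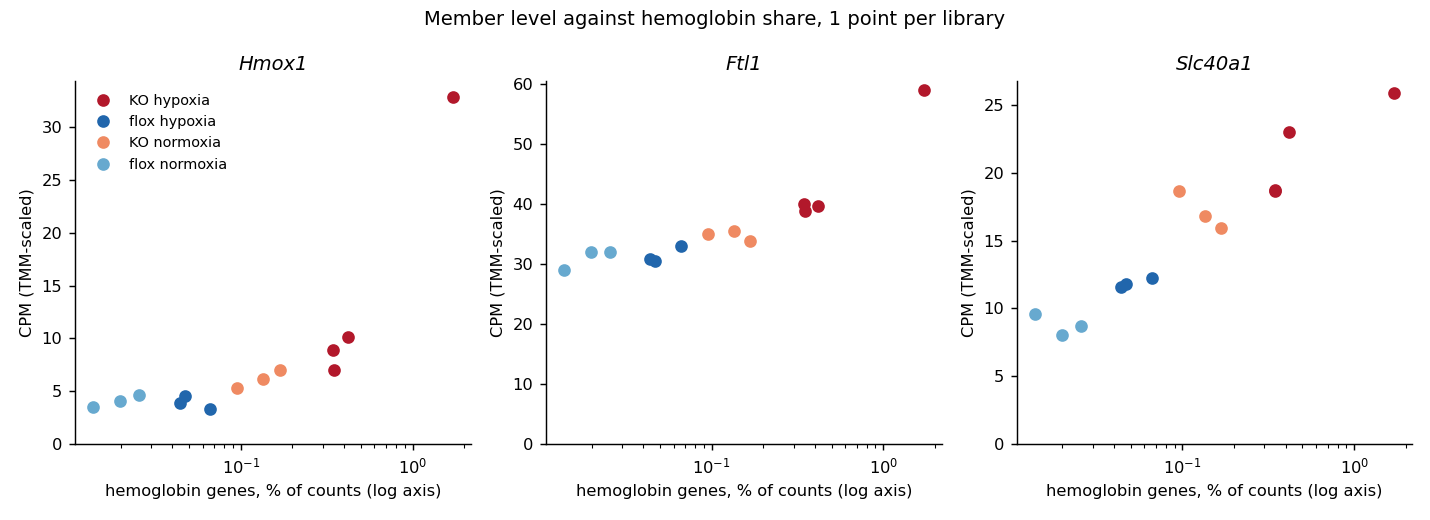
TMM-scaled CPM of Hmox1, Ftl1 and Slc40a1 against the hemoglobin percent of counts on a log axis, 1 point per library, coloured by group. The groups stand apart along the horizontal axis, and KO hypoxia replicate 1 lies alone at 1.72% with the highest value of each gene.

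Levels in whole tissue also move with the cell types in it, and more cells of a type and more RNA per cell cannot be told apart. Summed endothelial markers (10 genes) were at 347.7 to 512.8 CPM in KO hypoxia and 197.5 to 217.5 CPM in flox hypoxia, then 276.9 to 303.2 CPM in KO normoxia and 144.8 to 156.7 CPM in flox normoxia. All 10 were called higher in KO in hypoxia, and 9 of 10 in normoxia. Summed border macrophage markers (8 genes) were at 40.8 to 66.5 CPM in KO hypoxia against 25.8 to 28.5 CPM in flox hypoxia, and at 36.0 to 42.3 CPM in KO normoxia against 26.9 to 31.4 CPM in flox normoxia, with 7 of 8 called higher in hypoxia and 1 of 8 in normoxia. Without KO hypoxia replicate 1 the border macrophage counts were 4 of 8 in hypoxia and 2 of 8 in normoxia, and the endothelial counts 10 of 10 in both. No marker of these lists was at 0 in all libraries.

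Slc40a1 followed the endothelial sum closely. Ferroportin is known from brain endothelium as well as from macrophages, so both sums were used as yardsticks, a choice made after the data were seen. As a percent of the endothelial sum, Slc40a1 averaged 5.36 ± 0.289 in KO hypoxia (SD, n = 4) and 5.64 ± 0.331 in flox hypoxia (SD, n = 3). Under normoxia it averaged 5.89 ± 0.372 in KO and 5.85 ± 0.736 in flox (SD, n = 3 each), so the groups overlapped within each oxygen condition. Its share of the border macrophage sum overlapped in hypoxia too, at 38.9% to 49.7% in KO and 40.6% to 47.5% in flox, but not in normoxia, at 37.6% to 51.7% in KO and 27.6% to 35.1% in flox. Hmox1 was at 16.4% to 49.5% of the border macrophage sum in KO hypoxia, with the top value in replicate 1, and at 12.8% to 17.3% in flox hypoxia, which overlapped. In normoxia that share was 14.8% to 16.6% in KO and 12.7% to 15.3% in flox. As a percent of the endothelial sum, Hmox1 was at 2.03 to 6.41 in KO hypoxia and 1.52 to 2.32 in flox hypoxia, and in normoxia it averaged 2.13 ± 0.34 in KO and 2.70 ± 0.347 in flox (SD, n = 3 each), with overlap in both. Whether these cell types are the source of the differences was not tested.

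**Figure D4:**
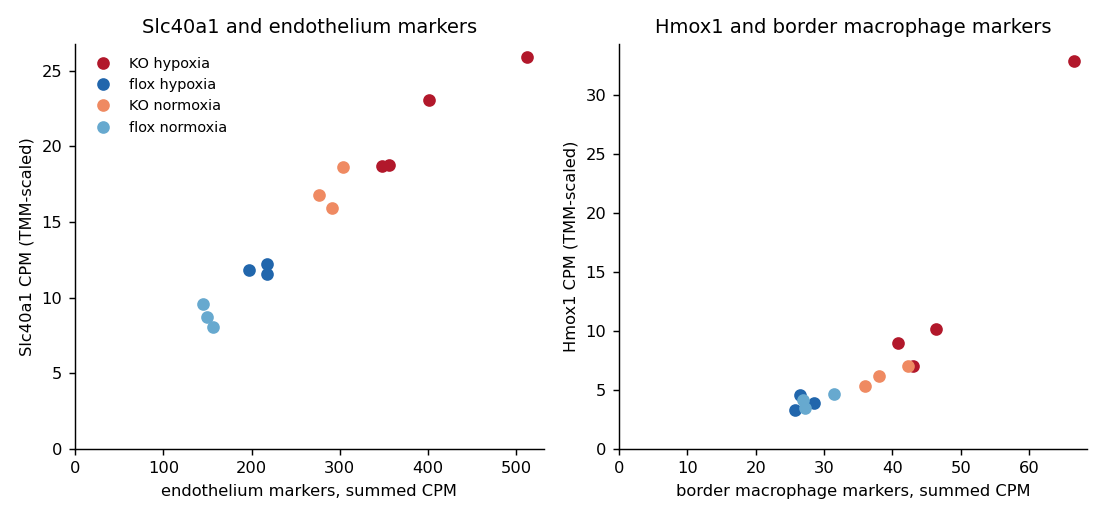
Left, TMM-scaled CPM of Slc40a1 against the summed CPM of 10 endothelial markers; right, Hmox1 against the summed CPM of 8 border macrophage markers; 1 point per library, coloured by group, both axes from 0. Slc40a1 lies near a line through the origin in all 4 groups, and KO hypoxia replicate 1 lies above the run of the other libraries for Hmox1.

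Summed microglial markers (8 genes) were at 339.9 to 420.7 CPM in KO hypoxia and 284.1 to 296.1 CPM in flox hypoxia, with 6 of 8 called higher, and at 325.3 to 339.9 CPM in KO normoxia and 280.6 to 293.2 CPM in flox normoxia, with none called by edgeR. Without KO hypoxia replicate 1 the microglial counts were 5 of 8 in hypoxia and 2 of 8 in normoxia. Summed astrocyte markers (6 genes) overlapped in hypoxia, at 4611 to 5748 CPM in KO and 4632 to 4667 CPM in flox, but 3 were called higher and 1 lower. Gfap, which rises in reactive astrocytes, was at 1.67 ± 0.15 (edgeR adjusted p = 8.43e-06), Aqp4 at 0.52 ± 0.09, Slc1a3 at 0.35 ± 0.05 and Slc1a2 at -0.23 ± 0.04 on the log2 scale. In normoxia the astrocyte sum was at 5325 to 5552 CPM in KO and 4839 to 5100 CPM in flox. Of its 6 markers 1 was called higher, Gfap at 1.43 ± 0.15 (edgeR adjusted p = 0.000132), and 1 was called lower. Without KO hypoxia replicate 1 the normoxia counts were 1 higher and 2 lower. The lower markers were Slc1a2 at -0.17 ± 0.04 and Gja1 at -0.26 ± 0.05 (edgeR adjusted p = 0.0227 and 0.00672). Summed monocyte and neutrophil markers were lower in level, at 6.63 to 25.1 CPM in KO hypoxia and 3.09 to 4.50 CPM in flox hypoxia, with the top value again in replicate 1. Their part in the differences was not tested.

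The genes of most similar pattern over the 13 libraries were listed by Pearson's r of log2 CPM among 12005 genes, as a description, since all points share the group differences and replicate 1 of KO hypoxia. For Slc40a1 they were the endothelial genes Mmrn2 (r = 0.988), Esam (0.980) and Cdh5 (0.978); Esam and Cdh5 are among the 10 endothelial markers. For Hmox1 they were Ctsc (0.981), a lysosomal protease, Ehd4 (0.978) and Ucp2 (0.969), a mitochondrial carrier. For Ftl1 they were its copies Ftl1-ps1 (0.989) and Ftl2-ps (0.978), then Gpx1 (0.971), a glutathione peroxidase. Blvrb was most like Hsd17b11 (0.891), Plin2 (0.890) and Sys1 (0.875), and Steap3 most like Gltp (0.952), Rab31 (0.946) and Nde1 (0.935).

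Among the 9 genes themselves, Hmox1 and Ftl1 had the highest r, 0.96 over the 13 libraries. These r are a description too, since all share the group differences and KO hypoxia replicate 1. Slc40a1 stood at 0.80 with Hmox1 and 0.81 with Ftl1, and Steap3 between 0.73 and 0.79 with each of Hmox1, Blvrb, Ftl1 and Slc40a1. Slc11a2 ran the other way, from -0.79 with Slc40a1 and -0.69 with Hmox1 to -0.2 with Fth1, but stood at 0.46 with Tfrc. Blvra stood between -0.25 and 0.24 with every other gene.

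Other genes of iron and heme biology were taken as 6 lists of 64 genes, of which 60 were tested. In hypoxia 10 were higher in KO than in flox and none was lower, with a median log2 fold change of 0.02 beside -0.01 for all genes. Over all genes tested 6.78% were higher and 2.28% lower. The count of 10 was 5 without KO hypoxia replicate 1, beside 1454 of 22278 genes called in either direction. It was also 5 without flox hypoxia replicate 1, beside 1254 of 23082 genes. In normoxia 2 were higher and none lower, beside 1.96% and 0.369% of all genes, a share near that of all genes. In hypoxia against normoxia 2 were higher in KO, Flvcr2 (0.76 ± 0.15, edgeR adjusted p = 0.0304) and Nfe2l2 (0.35 ± 0.08, adjusted p = 0.0447), beside 0.622% of all genes, and none passed in flox. Without KO hypoxia replicate 1 neither passed in KO (0.64 ± 0.14 and 0.35 ± 0.08, adjusted p = 0.0589 and 0.0787), and Cp joined the 2 in normoxia (0.59 ± 0.09, adjusted p = 0.000847). None of the 60 passed in the interaction, nor did any other gene.

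Scavenging and transport of heme and hemoglobin held 4 of 12 higher genes in hypoxia. Flvcr2, a transporter of brain endothelium that was long studied as a heme importer and is now known to carry choline, was at 7.82 ± 1.38 CPM in KO hypoxia (SD, n = 4) and 3.05 ± 0.347 CPM in flox hypoxia (SD, n = 3), a log2 fold change of 1.36 ± 0.16 (edgeR adjusted p = 5.87e-05). In normoxia it was at 4.64 ± 0.182 CPM in KO and 2.14 ± 0.446 CPM in flox (SD, n = 3 each; 1.11 ± 0.17, adjusted p = 0.00201). Abcg2, an efflux pump of the blood-brain barrier, rose by 0.64 ± 0.08 in hypoxia (adjusted p = 0.000116) and by 0.62 ± 0.08 in normoxia (adjusted p = 0.000813). Hp, which binds free hemoglobin, and Cd163, the macrophage receptor for that complex and also one of the border macrophage markers, were called in hypoxia at 2.30 ± 0.62 (adjusted p = 0.0296) and 1.10 ± 0.31 (adjusted p = 0.0342). Neither call held without KO hypoxia replicate 1 (1.62 ± 0.55 and 0.70 ± 0.22, adjusted p = 0.0971 and 0.0718). Hp was scarce, at 0.914 ± 0.700 CPM in KO hypoxia (SD, n = 4) and 0.180 ± 0.0784 CPM in flox hypoxia (SD, n = 3). The most abundant gene not called was Lrp1, a receptor for hemopexin-bound heme, at -0.10 ± 0.06.

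Partners of iron uptake and oxidation held 3 of 13. Cp, the ferroxidase ceruloplasmin that works beside ferroportin, was at 19.7 to 40.8 CPM in KO hypoxia and 9.77 to 12.0 CPM in flox hypoxia, a log2 fold change of 1.24 ± 0.20 (edgeR adjusted p = 0.00083), and 0.94 ± 0.09 without KO replicate 1 (adjusted p = 6.76e-06). Steap4, a metalloreductase, was called at 1.60 ± 0.43 (edgeR adjusted p = 0.0297), and not without that replicate (1.34 ± 0.44, adjusted p = 0.0897). Its level was low, at 0.855 ± 0.339 CPM in KO hypoxia (SD, n = 4) and 0.283 ± 0.0858 CPM in flox hypoxia (SD, n = 3). Lcn2, which binds iron-laden siderophores, was called at 4.26 ± 1.27 (adjusted p = 0.048) on a single library, replicate 1. Its mean over the other 3 KO hypoxia libraries was 0.337 CPM, against the 0.142 ± 0.0129 CPM of flox hypoxia (SD, n = 3), and the call was lost without replicate 1 (1.24 ± 0.50, adjusted p = 0.174). The most abundant gene not called was Slc22a17, at -0.10 ± 0.05.

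The Bach1 and Nrf2 axis, transcription factors that set Hmox1 and other antioxidant genes, held 2 of 10. Most of this list hardly differed, with a median log2 fold change of 0.07, beside -0.01 for all genes. Nfe2l2, which encodes Nrf2, was at 25.0 ± 1.28 CPM in KO hypoxia (SD, n = 4) and 15.6 ± 0.669 CPM in flox hypoxia (SD, n = 3), a log2 fold change of 0.69 ± 0.08 (edgeR adjusted p = 5.87e-05). Slc7a11, the cystine importer, was at 0.50 ± 0.07 (adjusted p = 0.000266), and Gpx4, the most abundant gene not called, at 0.05 ± 0.07. Of 9 genes of iron sensing and hepcidin control 1 was called, Ncoa4, the receptor that sends ferritin to lysosomes, at 0.17 ± 0.05 (adjusted p = 0.04), beside Pcbp1, an iron chaperone, at -0.06 ± 0.04. That Ncoa4 call was lost without KO hypoxia replicate 1, which left 5 of the 60 genes called: Flvcr2, Abcg2, Cp, Nfe2l2 and Slc7a11. In that fit 1454 of all 22278 genes tested were called in either direction, a share near that of the 60.

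No gene of heme synthesis (8 tested) or of mitochondrial iron and iron-sulfur clusters (8 tested) was called in any of the 5 comparisons with edgeR. In hypoxia Fech, which inserts iron into heme, was at 69.6 ± 14.8 CPM in KO (SD, n = 4) and 57.3 ± 0.645 CPM in flox (SD, n = 3; 0.28 ± 0.11, adjusted p = 0.114). The KO mean rested on 91.7 CPM in 1 library, and without KO hypoxia replicate 1 it was 62.3 CPM (0.12 ± 0.04, edgeR adjusted p = 0.111). In the same comparison Slc25a37, a mitochondrial iron importer, was at -0.06 ± 0.06.

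**Figure D5:**
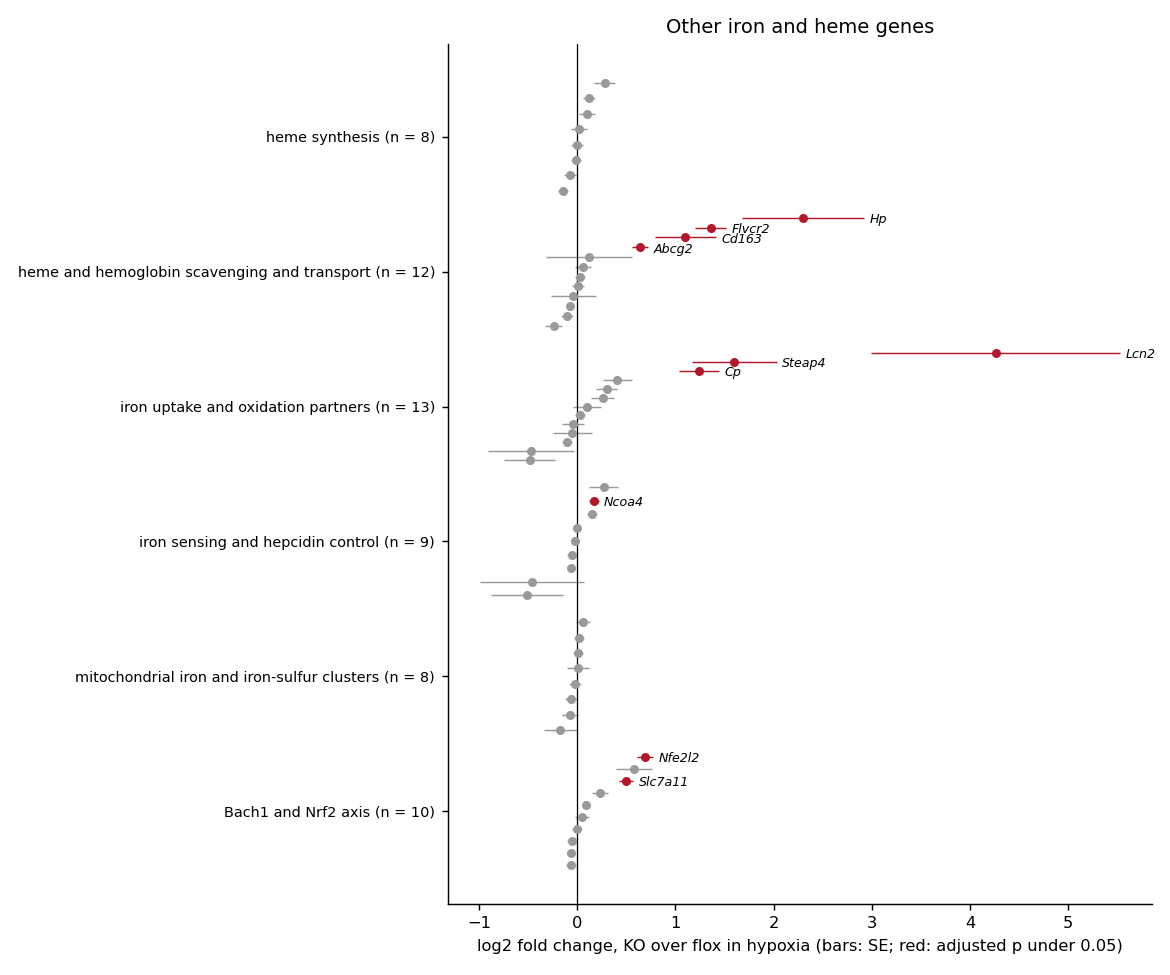
Log2 fold change of KO over flox in hypoxia for the 60 other iron and heme genes tested, in their 6 lists, with bars for the SE; red points have an edgeR adjusted p under 0.05. All 10 red points lie right of 0, and Lcn2 at 4.26 has the widest bar.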

How the data were processed

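Raw counts and RPKM values per gene were deposited by the authors for the same 55416 Ensembl identifiers and 13 libraries made with a stranded mRNA kit, per the labels' protocols. The submitters' processing notes list HISAT2, edgeR and GRCm39 and give no version; which program counted the reads, with which annotation and strand setting, is not stated there. Each deposited RPKM equals count divided by library total and 1 length per gene (relative range at most 9.84e-15 over 35248 genes). Of the identifiers, 52083 had a symbol and 3333 had none.

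Counts were tested with edgeR 4.0.16 (R 4.3.3), with filterByExpr (22507 genes, at least 99.95% of each library's counts), TMM scaling, 1 mean per group over all 13 libraries, a quasi-likelihood F test and Benjamini and Hochberg adjustment over all genes tested, with a threshold of 0.05. The SE comes from the F statistic. For the hemoglobin slope, log2 of the hemoglobin percent was added. Fits were also run on simulated counts, whose outcome is not reported here and is not used as a check of the calls. Alternatives were DESeq2 1.42.0, RLE scaling, library totals with no composition factor, leaving out the filter, at least 1 CPM in 3 libraries, a replicate block, limma 3.58.1 on log2 of the RPKM plus 1 or plus 0.1, the libraries of the 2 groups, the 9 libraries with Y-linked transcripts, and leaving out each library; for the gene and marker lists, the fit without KO hypoxia replicate 1 was added after the data were seen. Hemoglobin shares were compared by exact permutation (scipy 1.17.1).

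The 9 members, the lists and the markers were chosen with earlier results of these data known. Named besides the members were, per list, up to 4 called genes of the largest change under hypoxia and the most abundant gene not called, and per called member the 3 genes of most similar pattern, leaving out predicted genes. The labels name no animals, so the p-values speak only to the spread among libraries, which may be technical in part. KO hypoxia, KO normoxia and flox normoxia each held libraries with and without Y-linked transcripts, so none of these groups came from a single animal. The number of animals is not known for any group. No library repeated another (chi-square per degree of freedom at least 4.44 within groups), and the labels give no batch or date. At these depths the limit of 3 counts behind a value of 0 is 0.0428 to 0.0717 CPM, for counting error only.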

Additional observations from a re-analysis of the deposited data

Results flagged for a closer look

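In the group of 4 libraries, KO hypoxia, 19 measures were checked for a library far from the other 3 by Dixon's ratio, which chance exceeds in about 1 in 20, and 7 exceeded it. KO hypoxia replicate 1 was the far library in 5: Hmox1 at 32.88 CPM, Ftl1 at 59.06 CPM, hemoglobin genes at 1.717% of counts, summed erythroid markers at 200.9 CPM, and summed monocyte and neutrophil markers at 25.06 CPM. Blvrb and Slc40a1 were also highest in that library, without exceeding the critical ratio. KO hypoxia replicate 2 was the far library in the other 2, on the low side: Steap3 at 6.83 CPM and summed oligodendrocyte markers at 4311 CPM. The groups of 3 libraries were not tested in this way.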

How the results depend on the processing

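None of the 174 alternative fits of the 8 called single-gene results turned its direction. Steap3, Slc40a1 and Hmox1 were called in hypoxia in each alternative. The count of 5 genes ran from 3 to 5 when 1 library was left out (3 without flox hypoxia replicate 1 or 2, 4 without KO hypoxia replicate 1 or flox hypoxia replicate 3) and was 5 otherwise. For hypoxia against normoxia in KO the count of 0 became 3 without a filter on low counts and 1 with DESeq2, and ran from 0 to 1 when 1 library was left out; in flox it became 1 without the filter. The cause was not tested. The 2 genes with a hemoglobin slope ran from 0 to 2, with 0 only without KO hypoxia replicate 1. For the 60 other genes the count of 10 became 6 with the replicate block and ran from 5 to 13 when 1 library was left out (5 without flox hypoxia replicate 1 or KO hypoxia replicate 1, 13 without KO hypoxia replicate 2).

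Over all genes tested, the calls numbered 2039 in KO against flox in hypoxia (1151 without flox hypoxia replicate 2 to 2540 with DESeq2) and 524 in normoxia (249 with limma on log2(RPKM + 1) to 995 without a filter). For hypoxia against normoxia they numbered 202 in KO (2 without KO normoxia replicate 2 to 833 without a filter) and 5 in flox (0 to 158). The interaction had 0 (up to 55 without a filter) and the slope 172 (3 without KO hypoxia replicate 1 to 429 without a filter).

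Of 1188 single-gene values 40 changed sign, each in a comparison where the gene was not called. With the 9 libraries with Y-linked transcripts, Blvrb was at 0.02 and Tfrc at -0.05 (KO against flox, normoxia), and Hmox1 at 0.05 and Tfrc at -0.02 (hypoxia against normoxia, flox). In the interaction Blvra was at 0.02 without a composition factor and in both limma fits, and at 0 without a filter or with at least 1 CPM in 3 libraries, and Slc40a1 at 0.01 in limma on log2(RPKM + 1). The Tfrc slope was 0 without a composition factor. Leaving out 1 library gave ranges that crossed or touched 0. For KO against flox in normoxia these were -0.12 to 0.09 (Blvrb), -0.09 to 0.04 (Fth1) and -0.03 to 0.12 (Tfrc). For hypoxia against normoxia in flox they were -0.17 to 0.06 (Hmox1), -0.03 to 0.04 (Ftl1), -0.08 to 0.05 (Fth1) and -0.01 to 0.14 (Tfrc). For the interaction they were -0.05 to 0.03 (Blvra) and -0.03 to 0.07 (Slc11a2). For the slope they were -0.03 to 0.09 (Blvrb), 0 to 0.05 (Fth1), -0.09 to 0.14 (Slc40a1), -0.04 to 0.02 (Tfrc) and -0.03 to 0 (Slc11a2).

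The labels number the replicates 1 to 3 or 4 in each group. Same-numbered libraries deviated together only weakly (r between -0.018 and 0.137 over 18 pairs, against -0.131 to 0.093 over 45 others). With so few libraries per group, weak r over all genes cannot exclude a shared litter or batch, so pairing by number was not settled. With a replicate block the counts of members called stayed at 5 and 1 (KO against flox in hypoxia and in normoxia), 0 for the other 3 comparisons and 2 for the slope. Over all genes, that block lowered the calls of KO against flox in hypoxia from 2039 to 1571. The lowest count of a member was 138, for Hmox1 in flox hypoxia replicate 3. The part of counting error in the spread of the members was not tested.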
